A study of Mus musculus with 23 samples.

Results

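Isoproterenol, a synthetic agonist of beta-adrenergic receptors, was compared with saline in cardiomyocyte preparations from hearts of male Panx1fl/fl mice, which are called wild-type here because the floxed gene for pannexin 1 is intact. The comparison used 7 of the 23 RNA libraries of the series. The 4 isoproterenol libraries (headers PNXM644, PNXM647, PNXM645 and PNXM648) came from mice given 15 mg/kg/day for 14 days, and the 3 control libraries (PNXM657, PNXM661 and PNXM649) from mice labelled saline, which the series' design text calls untreated. All 7 libraries carry the loxP-flanked allele, and no group without it was included. Libraries of the other genotype, in which Panx1 is deleted in cells that use the Myh6 promoter (3 after saline, 4 after isoproterenol), entered the same statistical fit. The labels give no age, and do not say whether a library is 1 heart or a pool, so p-values measure the spread between libraries. Library values are always listed as PNXM657, PNXM661 and PNXM649 for saline and PNXM644, PNXM647, PNXM645 and PNXM648 for isoproterenol.

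Isoproterenol binds beta-adrenergic receptors, which couple through a stimulatory G protein to adenylyl cyclase, and the cAMP formed activates protein kinase A. In ventricular muscle the kinase phosphorylates calcium channels, phospholamban and sarcomere proteins, so that the heart beats faster and with more force. Prolonged infusion in mice is used as a model of hypertrophy, fibrosis and heart failure. Cardiomyocytes draw most of their ATP from fatty acids through oxidative phosphorylation, whose enzyme complexes are built from subunits encoded in both the nucleus and the mitochondrial genome.

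The cell type label was checked against marker genes. Summed over 14 cardiomyocyte markers, levels were 1959 to 3697 FPKM (fragments per kilobase and M reads) after saline and 4377 to 14770 FPKM after isoproterenol. Whole hearts labelled wild-type after isoproterenol (n = 5) had 18290 to 30070 FPKM, above all 7 preparations. Whole hearts labelled knockout (n = 4) had 13760 to 19870 FPKM, so PNXM648, the highest preparation, lay within their range. Lymphocyte and red cell markers lay above whole hearts in every preparation. Lymphocyte markers summed to 70.4 to 485 FPKM after saline and 43.8 to 91.5 FPKM after isoproterenol, against 0.781 to 2.51 FPKM in whole hearts labelled wild-type. Red cell transcripts summed to 9318 to 35420 and 6776 to 69970 FPKM, against 62.3 to 422 FPKM. Endothelial markers summed to 520 to 671 FPKM after saline and 993 to 1413 FPKM after isoproterenol, against 457 to 587 FPKM. Whole hearts labelled knockout had 0.836 to 8.26 FPKM for lymphocyte, 46.2 to 589 FPKM for red cell and 366.5 to 558 FPKM for endothelial markers. The libraries are therefore called cardiomyocyte preparations, since RNA of blood and vessel cells was plentiful in them. In such bulk RNA, fewer cells of a type and less RNA per cell cannot be told apart.

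**Figure D1:**
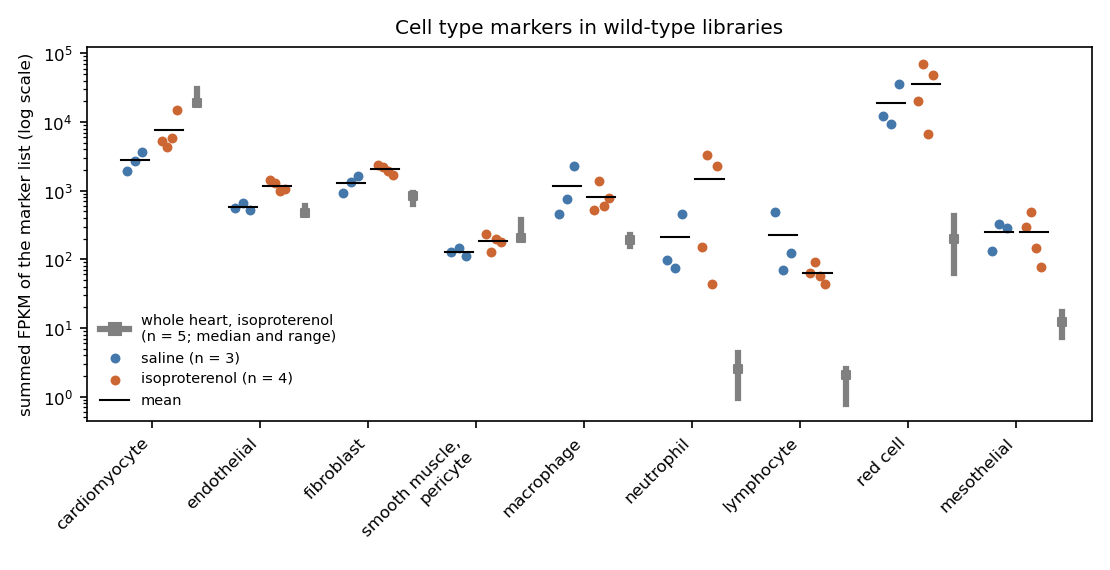
Summed FPKM of 9 marker lists on a log scale, 1 point per library for wild-type saline (n = 3) and isoproterenol (n = 4) preparations with the mean as a line, and the median and range of 5 whole hearts labelled wild-type in grey. Cardiomyocyte markers are 1959 to 3697 FPKM after saline and 4377 to 14770 FPKM after isoproterenol, below the 18290 to 30070 FPKM of whole hearts labelled wild-type.

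Assigned reads, in M (1000000 reads), numbered 30.1, 29.9 and 25.7 in the saline libraries and 23.1, 24.9, 24.1 and 21.0 in the isoproterenol libraries. Because of mitochondrial reads, 9.02 to 13.4 M reads per saline library and 5.06 to 5.90 M per isoproterenol library came from other chromosomes. The deposited FPKM also carry a scaling between libraries. Their library size is 0.880 to 1.39 times the assigned reads after saline and 0.426 to 0.638 times after isoproterenol. Scaled to assigned reads instead, the median of all genes moved by -0.83 on the log2 scale, and when the non-mitochondrial sums of all libraries were equalised by -0.26, so a difference stated here is relative to the deposited scaling. Header numbers of all isoproterenol libraries precede those of all saline libraries, and what the numbers record is not given. Panx1, which should be intact in both groups, was 2.89, 1.57 and 2.17 FPKM after saline and 1.43, 1.89, 1.24 and 1.64 FPKM after isoproterenol. The groups overlapped, and the difference was -0.32 ± 0.16 (log2, SE; limma adjusted p = 0.221). Whole hearts, used here for marker levels alone, had less Panx1 when labelled wild-type (0.412 ± 0.066 FPKM, SD, n = 5) than when labelled knockout (0.651 ± 0.189 FPKM, SD, n = 4), against their labels.

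After isoproterenol, 78 genes rose and 6 fell among 11919 tested, which is 0.654% and 0.0503% of them. A gene was called at an adjusted p under 0.05 from limma on log2(FPKM + 1), and differences are on that scale with their standard error, which understates the change of genes of low level. The rises were of 2 kinds: 11 genes of the mitochondrial chromosome, and 67 genes of other chromosomes among which were endothelial surface and signalling genes such as Rbp7, Gpihbp1, Sox18, Eng, Tie1 and Nos3. Of the 84 genes, 69 rises and 4 falls were protein-coding. All 84 had every isoproterenol library on the same side of every saline library. At that looser standard 11.7% of all genes tested lay above and 7.11% below, and unadjusted p was under 0.05 for 12.8% higher and 11.5% lower. The difference was above 0 for 54.1% of all genes tested, the share to set beside the counts above 0 given for lists below. The calls rest on thin margins. No gene was called when only the 7 wild-type libraries were fitted, nor without PNXM661, PNXM644, PNXM647 or PNXM648. Without PNXM657, 0 genes were called higher and 1 lower, without PNXM649 61 and 24, and without PNXM645 178 and 45. Scaling also changed the counts: 2 genes were called higher and 0 lower under quantile normalisation, 0 and 0 with equal non-mitochondrial sums, and 14 and 7856 when scaled to assigned reads. With no filter on low values 58 were called higher and 49 lower. The smallest adjusted p was 0.0182, and 21 of the 78 rises had an adjusted p between 0.04 and 0.05.

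Mitochondrial RNA made up a larger share of the sequence after isoproterenol in wild-type preparations. It was 56.7, 55.3 and 65.0% of assigned reads after saline and 78.1, 79.3, 75.6 and 75.8% after isoproterenol. All 4 isoproterenol libraries lay above all 3 saline libraries, with means of 59.0 ± 5.2% (SD, n = 3) and 77.2 ± 1.8% (SD, n = 4). The exact two-sided permutation p was 0.0286 (0.0286 adjusted over the 2 measures tested this way), the smallest that 35 assignments allow. Assigned reads differed with the same exact permutation p, at 28.6 ± 2.5 M (SD, n = 3) for saline against 23.3 ± 1.7 M (SD, n = 4) for isoproterenol, lower in all 4 libraries. Preparations labelled knockout had 69.3 to 80.0% mitochondrial reads after saline (n = 3) and 46.8 to 69.3% after isoproterenol (n = 4). Knockout saline libraries thus reached the share of treated wild-type libraries. The part of depth in the mitochondrial share was not tested.

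The mitochondrial genome encodes 13 proteins of the respiratory chain and ATP synthase, and 7 of them rose, against 0.654% of all genes tested. For the ATP synthase subunit mt-Atp6 (mitochondrial chromosome, 7927 to 8607), FPKM were 9499, 7927 and 15860 after saline and 48860, 46280, 37980 and 33110 after isoproterenol. Its lowest isoproterenol value was above its highest saline value, with a difference of 1.95 ± 0.35 (adjusted p = 0.0322). The neighbouring subunit gene mt-Atp8, which shares bases with mt-Atp6, was 240, 160.5 and 230 FPKM and then 719, 798, 534 and 938 FPKM (1.82 ± 0.31, adjusted p = 0.0309). Of the cytochrome c oxidase subunits, mt-Co3 had the largest difference among the 13, with 12070, 7102 and 18230 FPKM after saline and 52950, 51090, 36560 and 48440 FPKM after isoproterenol (2.01 ± 0.37, adjusted p = 0.0322). The other oxidase subunits, mt-Co2 (1.93 ± 0.40, adjusted p = 0.0469) and mt-Co1 (1.66 ± 0.35, adjusted p = 0.0499), followed it. Among complex I subunits, mt-Nd1 was 49980, 44770 and 83420 FPKM after saline and 192300, 218000, 138800 and 207500 FPKM after isoproterenol. It rose by 1.71 ± 0.33 (adjusted p = 0.0349), and mt-Nd2 rose by 1.67 ± 0.34 (adjusted p = 0.0434). The other 6 were not called, with differences between 1.26 for mt-Nd6 and 1.67 for mt-Nd3. In all 13 the isoproterenol libraries lay above the saline libraries, and among saline libraries PNXM649 was the highest for 11 of them.

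The ribosomal RNAs of the mitochondrion rose as well, mt-Rnr1 by 1.70 ± 0.30 (adjusted p = 0.0322) and mt-Rnr2 by 1.62 ± 0.33 (adjusted p = 0.0434). Of 21 mitochondrial transfer RNAs tested, 2 were called and 20 had a difference above 0. In all, 28 of the 36 tested genes of this chromosome had every isoproterenol library above every saline library, against 11.7% of all genes tested. The median over the 13 proteins was 1.67, and 1.30 relative to the median of all genes when scaled to assigned reads. Under quantile normalisation, which gives the most abundant genes of every library the same values, it was 0, with mt-Co2 at -0.10 and mt-Rnr2 at -0.04. Gm28438 and Gm13341, unprocessed pseudogenes on chromosomes 1 and 2 that can take reads from mitochondrial genes, were called with them, at 1.80 ± 0.33 (adjusted p = 0.0322) and 1.52 ± 0.29 (adjusted p = 0.0358).

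**Figure D2:**
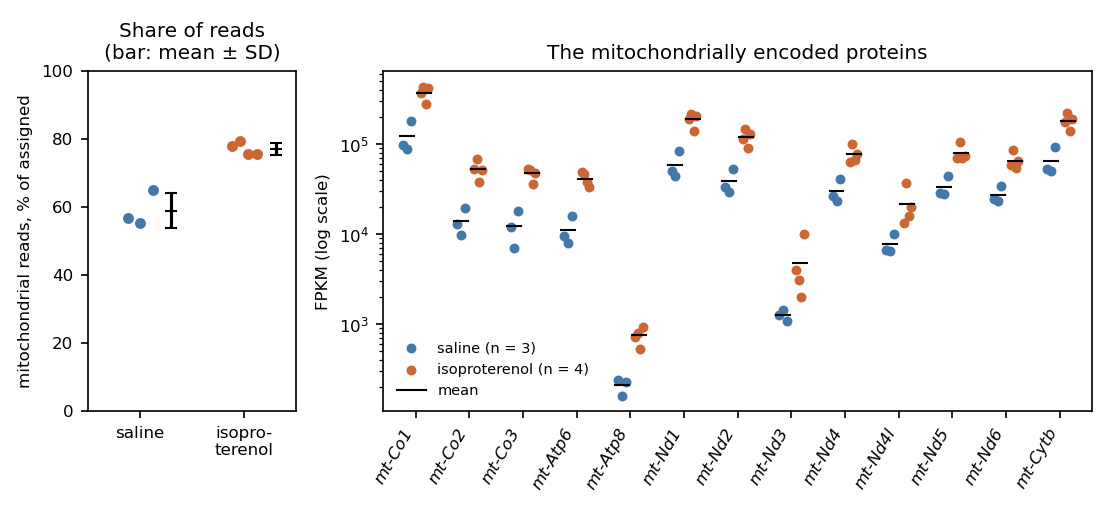
Left, mitochondrial reads as a percent of assigned reads per wild-type library, with the mean and SD; right, FPKM of the 13 mitochondrially encoded proteins on a log scale, with the mean as a line. The 4 isoproterenol libraries sit at 75.6 to 79.3% and the 3 saline libraries at 55.3 to 65.0%, and the groups do not overlap for any of the 13 genes.

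A list of nuclear subunits of the same enzyme complexes also had differences above 0, without a call. All 79 listed subunits of the respiratory chain and ATP synthase were measured, and for all 79 the difference was above 0. Their median was 1.09 against 0.04 over all genes. The limma test called 0 of them, and voom on the recovered reads 0. At an unadjusted p under 0.05 there were 48 higher and 0 lower. The nuclear oxidase subunit isoform Cox4i2 was not on this list but among the pericyte markers, and it was called higher (1.27 ± 0.21, limma adjusted p = 0.0275). Uqcrq, a subunit of complex III, was 39.3, 41.5 and 55.5 FPKM after saline and 125, 121, 102 and 372 FPKM after isoproterenol (1.76 ± 0.59, adjusted p = 0.147). The ATP synthase subunit Atp5e was 41.3, 40.8 and 46.2 FPKM and then 125, 124.5, 88.8 and 277 FPKM (1.69 ± 0.51, adjusted p = 0.126). In both genes PNXM648 stood far above the other isoproterenol libraries, while those 3 still lay above saline. Atp5k (1.60 ± 0.52, adjusted p = 0.138) and the complex I subunit Ndufa2 (1.45 ± 0.48, adjusted p = 0.146) had the same order. The median of the list was 0.76 without PNXM648 and 0.61 under quantile normalisation. Of 75 tested mitochondrial ribosomal proteins, 73 had a difference above 0 (median 0.52), 0 were called by either tool, and 20 were higher at an unadjusted p under 0.05, among them Mrpl17 at 0.73 ± 0.25 and Mrps16 at 1.08 ± 0.41.

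Fuel use was described by 3 lists in which limma and voom called 0 genes. Of 43 fatty acid genes tested, 41 were above 0 (median 0.66, and 0.36 under quantile normalisation), with unadjusted p under 0.05 for 15 higher and 1 lower. Nearest to a call was Mgll, monoglyceride lipase, at 27.7, 38.6 and 35.5 FPKM after saline and 79.3, 85.2, 51.3 and 64.0 FPKM after isoproterenol (1.01 ± 0.22, adjusted p = 0.0581). Its groups did not overlap. Lipe, hormone-sensitive lipase and a target of protein kinase A in fat cells, differed by 0.83 ± 0.19 (adjusted p = 0.0654). The adipogenic nuclear receptor Pparg differed by 0.71 ± 0.19 (adjusted p = 0.0949) and the electron transfer flavoprotein subunit Etfb by 1.52 ± 0.51 (adjusted p = 0.146). Of 32 genes of the tricarboxylic acid cycle and pyruvate entry, 29 were above 0 (median 0.54, and 0.32 without PNXM648, 0.81 without PNXM649 and 0.22 under quantile normalisation), and 0 had an unadjusted p under 0.05 in either direction. Of 33 genes of glucose uptake, glycolysis and glycogen, 30 were above 0 (median 0.37, and 0.59 without PNXM649 and 0.19 under quantile normalisation), 6 of them higher at an unadjusted p under 0.05. There the phosphoglycerate mutase Pgam2 differed by 1.63 ± 0.52 (adjusted p = 0.138) and the insulin-regulated glucose transporter Slc2a4 by 1.25 ± 0.50 (adjusted p = 0.172).

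Genes of the contractile apparatus were set beside the cardiomyocyte markers. Of 31 sarcomere genes tested, 30 had a difference above 0 (median 0.92), 0 were called by limma or voom, and 11 were higher and 0 lower at an unadjusted p under 0.05. Myl2, the ventricular regulatory light chain, was 254, 344 and 324 FPKM after saline and 853, 804, 838 and 2529 FPKM after isoproterenol (1.85 ± 0.54, adjusted p = 0.115). Tcap, a titin cap of the Z-disc, was 133, 143 and 305 FPKM and then 536, 324, 629 and 967 FPKM (1.66 ± 0.44, adjusted p = 0.0977). For both genes the groups were apart, and PNXM648 was the highest library. Tnni3 (1.62 ± 0.54) and Myl3 (1.65 ± 0.65), an inhibitory troponin and the essential light chain, had adjusted p of 0.146 and 0.17. The 14 cardiomyocyte markers share members with this list, at least Myl2 and Tnni3, so the 2 lists are not independent. The markers had a median of 0.93, all 14 above 0 and 0 called by either tool, with 6 higher at an unadjusted p under 0.05. Their summed level was 1959, 2733 and 3697 FPKM after saline and 5296, 4377, 5871 and 14770 FPKM after isoproterenol. Medians of the sarcomere list and the markers were 0.59 and 0.60 without PNXM648, 0.56 and 0.62 without PNXM657, and 0.39 and 0.24 under quantile normalisation. The part of the cardiomyocyte marker level in the differences of muscle and energy genes was not tested.

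Calcium handling was mixed. Of 31 genes tested, 22 were above 0 (median 0.19), limma called 0 and voom 1, and unadjusted p was under 0.05 for 5 higher and 2 lower. Trdn, the triadin of the calcium release complex, was 4.83, 5.86 and 7.48 FPKM after saline and 13.4, 10.2, 14.2 and 25.01 FPKM after isoproterenol (1.19 ± 0.30, adjusted p = 0.0853). On the other side, the plasma membrane calcium pump Atp2b1 differed by -0.70 ± 0.23 (adjusted p = 0.146). The sodium pump regulator Fxyd1 differed by 1.36 ± 0.57 (adjusted p = 0.18). Of 22 listed cardiac ion channel and gap junction genes tested, 21 were above 0 (median 0.40, and 0.22 without PNXM648) and 0 were called by either tool. The 4 with an unadjusted p under 0.05 were the potassium channels Kcna5 (1.07 ± 0.30), Kcnj8 (0.73 ± 0.23) and Kcnk3 (1.47 ± 0.48) and the cation channel Trpm4 (0.53 ± 0.16). The gap junction gene Gja4 was not on this list, and it was called higher (1.14 ± 0.22, limma adjusted p = 0.0365).

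Hypertrophy genes gave no call. Of 28 tested, 20 were above 0 (median 0.31, and 0.17 without PNXM657 and 0.08 under quantile normalisation), limma and voom called 0, and 3 were higher and 1 lower at an unadjusted p under 0.05. Hbegf, a growth factor shed from muscle, was 0.595, 1.19 and 0.688 FPKM after saline and 1.32, 2.79, 1.505 and 3.15 FPKM after isoproterenol (0.78 ± 0.25, adjusted p = 0.138). The intermediate filament Des was 34.5, 61.2 and 51.4 FPKM and then 99.7, 103, 106 and 300.4 FPKM (1.48 ± 0.54, adjusted p = 0.159). Both were separate between groups. Gata4, a cardiac transcription factor, differed by 0.57 ± 0.26 (adjusted p = 0.202) and Mef2a by -0.43 ± 0.17 (adjusted p = 0.178). The natriuretic peptide Nppa spread widely within both groups, at 4.005, 19.5 and 55.7 FPKM after saline and 57.9, 65.8, 17.8 and 40.0 FPKM after isoproterenol. Atrial markers spread in the same way: they summed to 33.3 to 651 FPKM after saline and 162 to 499 FPKM after isoproterenol, with PNXM649 highest. Of the 8 tested, 7 were above 0 (median 1.06), including Stard10 (1.12 ± 0.57, adjusted p = 0.232), and 0 were called by either tool or had an unadjusted p under 0.05. Their median was 0.17 without PNXM657 and 2.07 without PNXM649.

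A list for the receptor pathway that isoproterenol acts on had a median near that of all genes. Of 37 listed adrenergic and cAMP genes tested, 23 were above 0 (median 0.06), 0 were called by limma or voom, and 6 were higher and 4 lower at an unadjusted p under 0.05. The adenylyl cyclase Adcy4 was not on this list, and it was called higher (1.00 ± 0.18, limma adjusted p = 0.0322). The main cardiac receptor Adrb1 was 1.42, 1.66 and 1.56 FPKM after saline and 1.35, 1.67, 2.48 and 2.35 FPKM after isoproterenol. Its groups overlapped, and the difference was 0.20 ± 0.20 (adjusted p = 0.53). The kinase anchor Akap13 came nearest to a call, with 10.1, 7.15 and 7.80 FPKM after saline and 4.30, 4.32, 5.42 and 3.27 FPKM after isoproterenol (-0.81 ± 0.19, adjusted p = 0.0654). All 4 treated libraries lay below saline. The cAMP phosphodiesterases Pde3b (-0.54 ± 0.18) and Pde7a (-0.35 ± 0.14) also had all isoproterenol libraries below saline, with adjusted p of 0.146 and 0.167. The stimulatory G protein subunit Gnas differed by 0.43 ± 0.16 (adjusted p = 0.165). Of 14 textbook targets of cAMP and CREB, 3 were above 0 (median -0.12), and 0 were called by either tool. There Nr4a1, an orphan nuclear receptor, was 10.4, 11.6 and 5.62 FPKM after saline and 2.43, 4.08, 4.96 and 2.90 FPKM after isoproterenol (-1.13 ± 0.27, adjusted p = 0.0674). Fos differed by -1.63 ± 0.47 (adjusted p = 0.117), Sik1 by -0.47 ± 0.30, and Id1 in the other direction by 0.88 ± 0.27 (adjusted p = 0.13).

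Endothelial transcripts had the most calls of any list of nuclear genes. Of 18 endothelial markers, all 18 had a difference above 0 (median 0.86), and 5 were called by limma and the same number by voom, against 0.654% of all genes tested called higher. For 14 of them every isoproterenol library lay above every saline library, against 11.7% of all genes tested. The list was written with earlier results of these data known, so these counts describe it and test nothing. The median was 0.46 under quantile normalisation and 0.54, relative to the median of all genes, when scaled to assigned reads, where nuclear respiratory subunits had 0.61 and 0.79. Rbp7 (chromosome 4), a retinol-binding protein of fat and heart capillaries, had the largest rise among called genes. It was 9.01, 11.5 and 12.5 FPKM after saline and 35.65, 61.7, 58.6 and 45.4 FPKM after isoproterenol, with a wide gap between the groups. The difference was 2.08 ± 0.28 (adjusted p = 0.0182). Gpihbp1, which carries lipoprotein lipase to the capillary lumen, was 17.4, 18.6 and 18.8 FPKM and then 63.75, 57.8, 35.8 and 54.6 FPKM (1.46 ± 0.23, adjusted p = 0.0259). Ly6c1, a surface protein of microvessels, was 43.0, 46.8 and 44.1 FPKM after saline and 146, 111, 91.5 and 96.7 FPKM after isoproterenol (1.27 ± 0.23, adjusted p = 0.0322). In these genes the saline libraries were close together, and PNXM645 was the lowest treated library for Gpihbp1 and Ly6c1. Eng, a co-receptor for BMP ligands, rose by 1.19 ± 0.23 (adjusted p = 0.0384), and the receptor kinase Tie1 by 0.99 ± 0.21 (adjusted p = 0.0499). The summed endothelial level was higher after isoproterenol in all 4 libraries, and its part in these rises was not tested.

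Promoter sequences of Rbp7 and Tie1 are shown because their genes are 2 of the endothelial markers that rose, and the core letters of ETS factors, which act in endothelial genes, can be read in them. Each runs from 250 bases before to 50 bases after the start of the gene on the minus strand (RefSeq, GRCm38.p6), at chr4:149454919-149455218 for Rbp7 and chr4:118489800-118490099 for Tie1. Capitals mark GGAAG and its reverse complement CTTCC.
Rbp7: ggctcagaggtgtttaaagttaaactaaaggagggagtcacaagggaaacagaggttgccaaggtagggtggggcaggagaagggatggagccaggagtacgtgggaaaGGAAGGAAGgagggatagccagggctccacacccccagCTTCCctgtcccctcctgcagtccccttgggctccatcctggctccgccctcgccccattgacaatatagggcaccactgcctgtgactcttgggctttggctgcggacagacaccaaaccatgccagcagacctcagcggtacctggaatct
Tie1: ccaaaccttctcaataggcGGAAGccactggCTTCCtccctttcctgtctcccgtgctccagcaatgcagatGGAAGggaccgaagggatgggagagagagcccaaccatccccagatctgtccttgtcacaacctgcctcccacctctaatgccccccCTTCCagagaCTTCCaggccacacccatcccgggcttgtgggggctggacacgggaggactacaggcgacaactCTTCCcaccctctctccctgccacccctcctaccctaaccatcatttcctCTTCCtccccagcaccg
The letters occur 3 times in the Rbp7 window and 7 times in the Tie1 window. Of 62 nuclear protein-coding genes that rose, 41 matched a promoter in the table, and 85.4% of those held GGAAG on either strand. A gene was counted if any of its promoters held the letters. Counted so, the share was 79.1% of the 8251 genes tested that matched. Counted by promoter instead, it was 71.4% of all 32851 promoters. A part of the cAMP response element, TGACG on either strand, was in 14.6% of the 41 genes, against 35.7% of genes tested and 20.8% of all promoters. The SOX core ACAAT was in 19.5% of the 41 genes, against 23.03% of genes tested and 31.0% of all promoters. These are matches of letters in a window and no measure of binding.

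Other called genes with known roles in vessels were chosen after their values were seen, so they describe the 67 nuclear rises and test nothing. The transcription factor Sox18, which acts in vascular development, was 27.2, 29.5 and 41.0 FPKM after saline and 110, 106, 60.9 and 97.7 FPKM after isoproterenol (1.48 ± 0.29, adjusted p = 0.0384). Nos3, endothelial nitric oxide synthase, was 5.29, 7.74 and 5.07 FPKM and then 14.2, 15.2, 11.8 and 14.3 FPKM (1.09 ± 0.19, adjusted p = 0.0309). In neither gene did the groups overlap. The TGF-beta family receptor Acvrl1 rose by 1.10 ± 0.17 (adjusted p = 0.0259) and the venous ephrin receptor Ephb4 by 1.06 ± 0.16 (adjusted p = 0.0259). Efna1, an ephrin of the A class, rose by 1.16 ± 0.22 (adjusted p = 0.0322). Heyl, a target of Notch signalling, was 3.64, 3.997 and 3.58 FPKM after saline and 8.66, 7.32, 7.33 and 8.18 FPKM after isoproterenol (0.90 ± 0.12, adjusted p = 0.0182). The adrenomedullin co-receptors Ramp2 and Ramp3 rose by 1.14 ± 0.19 (adjusted p = 0.0309) and 0.99 ± 0.20 (adjusted p = 0.0401). Rises were also called for the junction regulator Rasip1 (1.12 ± 0.21), the gap junction protein Gja4 (1.14 ± 0.22), the lipoprotein receptors Scarb1 (0.74 ± 0.16) and Scarf1 (0.78 ± 0.15), and the adenylyl cyclase Adcy4 (1.00 ± 0.18). All 67 nuclear rises had a higher mean FPKM in these 4 libraries than in whole hearts labelled wild-type after isoproterenol. They were chosen as high in these 4 libraries, which favours that order in advance. The share over all genes tested was not counted. Whole hearts labelled wild-type also had only 20.4 to 25.45% mitochondrial reads. The count of 67 therefore gives no result about these genes.

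**Figure D3:**
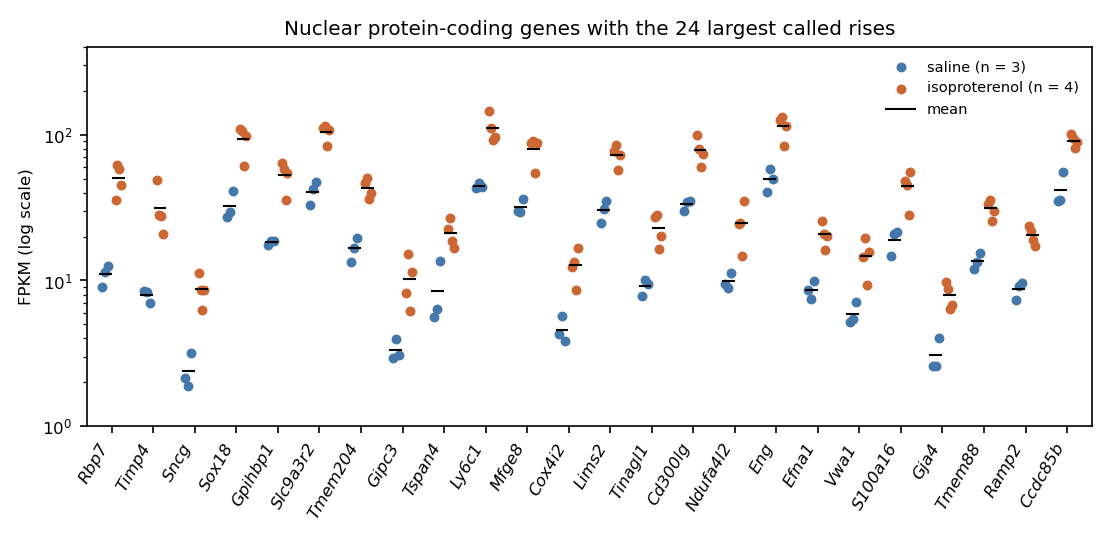
FPKM on a log scale of the nuclear protein-coding genes with the 24 largest called rises, 1 point per wild-type library after saline (n = 3) and isoproterenol (n = 4), with the mean as a line. Rbp7 is 9.01 to 12.5 FPKM after saline and 35.65 to 61.7 FPKM after isoproterenol. No gene overlaps between groups, which was so for all 84 called genes, from which these were taken. Of all genes tested, 11.7% had every isoproterenol library above every saline library.

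Some of the largest called rises were neither on the endothelial list nor among the genes named above. Which cells they came from was not tested. Timp4, an inhibitor of matrix metalloproteinases that is abundant in heart, was 8.45, 8.37 and 7.05 FPKM after saline and 49.0, 28.3, 27.8 and 20.9 FPKM after isoproterenol (1.80 ± 0.37, adjusted p = 0.0473). PNXM644 was the highest, and the lowest treated library was well above saline. Timp4 was the single call among 45 matrix genes tested, by limma and by voom. Their median was 0.03, and -0.18 under quantile normalisation, with 26 above 0, and 5 were higher and 1 lower at an unadjusted p under 0.05. Among them Col6a2 differed by 0.65 ± 0.21 (adjusted p = 0.146), the collagen chaperone Serpinh1 by 0.67 ± 0.28 and thrombospondin Thbs1 by -1.04 ± 0.47. Sncg, gamma-synuclein, was 2.14, 1.90 and 3.16 FPKM and then 11.3, 8.65, 6.25 and 8.67 FPKM (1.51 ± 0.22, adjusted p = 0.0259). Rises were also called for the scaffold Slc9a3r2 (1.34 ± 0.24, adjusted p = 0.0322), the membrane protein Tmem204 (1.33 ± 0.20, adjusted p = 0.0259) and Gipc3 (1.32 ± 0.26, adjusted p = 0.0358). The globin Cygb rose by 1.07 ± 0.21 (adjusted p = 0.0365) and the phagocytic bridging protein Mfge8 by 1.27 ± 0.25 (adjusted p = 0.0358).

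Cox4i2, an oxidase subunit isoform of hypoxia-adapted cells and of pericytes, was 4.27, 5.66 and 3.87 FPKM after saline and 12.3, 13.3, 8.57 and 16.7 FPKM after isoproterenol. The groups were apart, and it rose by 1.27 ± 0.21 (adjusted p = 0.0275). It was the single call, by limma and by voom, among 11 smooth muscle and pericyte markers tested, 10 of them above 0 (median 0.41). The next were Vtn (1.13 ± 0.29, adjusted p = 0.0931), the channel Kcnj8 and Tagln (0.51 ± 0.22). Ndufa4l2, an isoform induced under low oxygen, rose by 1.19 ± 0.24 (adjusted p = 0.0434). Fibroblast markers gave 0 calls with either tool among 14 tested, 11 above 0 (median 0.37) and 3 higher at an unadjusted p under 0.05. Those were Tcf21 (0.86 ± 0.22, adjusted p = 0.0924), Gsn (1.05 ± 0.28, adjusted p = 0.0949) and Dpep1 (1.07 ± 0.29, adjusted p = 0.0973). The fibroblast median was 0.24 without PNXM657 and -0.07 under quantile normalisation.

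Trib3, a pseudokinase induced by the integrated stress response, shared the smallest adjusted p of the protein-coding genes with Rbp7 and Heyl. It was 1.46, 1.28 and 1.43 FPKM after saline and 4.38, 4.36, 2.90 and 4.39 FPKM after isoproterenol (1.05 ± 0.14, adjusted p = 0.0182). Of 29 stress response genes tested it was the single call by limma and voom, with 19 above 0 and a median of 0.16. Atf5, a transcription factor of the mitochondrial stress response, was 10.55, 13.7 and 18.9 FPKM and then 33.5, 49.1, 21.0 and 38.7 FPKM (1.22 ± 0.28, adjusted p = 0.0654). Herpud1 differed by 0.65 ± 0.24 (adjusted p = 0.157) and Ddit3, which drives Trib3 transcription, by 0.33 ± 0.13 (adjusted p = 0.176). Of 19 heat shock genes, 12 were above 0 (median 0.25, and -0.14 under quantile normalisation) and 0 were called by either tool. The inducible Hspa1b (-0.77 ± 0.23) and Hsp90aa1 (-0.63 ± 0.20) had all treated libraries below saline, and the small heat shock protein Hspb1 (1.10 ± 0.38) and the cochaperone Bag3 (0.72 ± 0.30) all above. Of 28 immediate early genes, 13 were above 0 (median -0.02), and 0 were called by either tool. Egr1 differed by -0.78 ± 0.22 and Maff by 0.67 ± 0.17, with adjusted p of 0.111 and 0.0867. These genes also respond to tissue dissociation, and its part was not tested.

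The remaining lists of cell maintenance had 0 calls from limma and from voom. Their counts above 0 stand beside 54.1% of all genes tested. Of 30 antioxidant and iron genes, 25 were above 0 (median 0.38, and 0.24 without PNXM657 and 0.09 under quantile normalisation), led by the plasma peroxidase Gpx3 (1.08 ± 0.35, adjusted p = 0.138), the superoxide dismutase Sod3 (0.75 ± 0.24) and the lipid peroxidase Gpx4 (1.50 ± 0.57). Of 24 ubiquitin ligase, autophagy and mitophagy genes, 15 were above 0 (median 0.38, and 0.22 without PNXM657 and 0.05 under quantile normalisation), with the muscle ligase Trim54 at 1.43 ± 0.41 (adjusted p = 0.114) and Tfeb, a regulator of lysosome genes, at 0.66 ± 0.24. Of 16 p53 and growth arrest genes, 10 were above 0 (median 0.14, and -0.01 under quantile normalisation), with Phlda3 at 1.11 ± 0.28 (adjusted p = 0.0835) and Cdkn1c at 0.94 ± 0.25 (adjusted p = 0.0949). Of 18 clock genes, 12 were above 0 (median 0.13), with the activator Arntl at -1.02 ± 0.39 and its repressor Nr1d1 at 0.84 ± 0.34. Neither was separate between groups, and the hour of sampling is not given in the labels. Of 14 pannexin and purinergic genes tested, 8 were above 0 (median 0.14). The ectonucleotidase Entpd2 was 5.57, 8.49 and 8.42 FPKM after saline and 16.4, 15.6, 11.8 and 11.7 FPKM after isoproterenol (0.81 ± 0.22, adjusted p = 0.0994), and the ATP receptor P2ry2 differed by 0.67 ± 0.20 (adjusted p = 0.115).

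**Figure D4:**
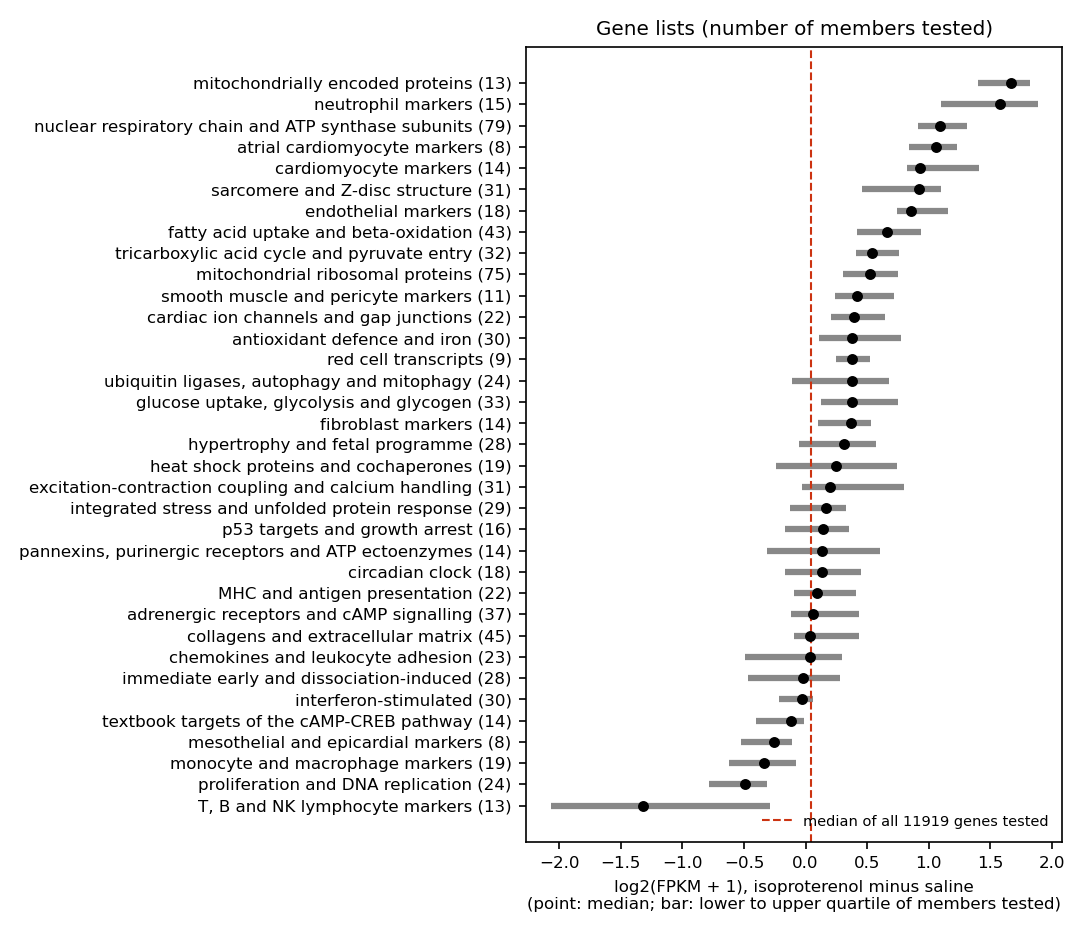
Median (point) and lower to upper quartile (bar) of the log2 difference, isoproterenol minus saline, over the tested members of each gene list with at least 8 of them, with the median of all 11919 genes dashed. Mitochondrially encoded proteins lie highest at a median of 1.67 and lymphocyte markers lowest at -1.32.

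Most list medians were unsteady. Leaving out 1 library moved 31 of 37 by over 1.5 times or changed their sign, and the 3 other scalings did so for 26. Under neither did the medians of 2 lists move that far, those of mitochondrial ribosomal proteins and of smooth muscle and pericyte markers. Medians scaled to assigned reads or to equal non-mitochondrial sums were taken relative to the shift of all genes, -0.83 and -0.26. The shift of -0.83 is larger than the main medians of these lists, 0.52 and 0.41, so their steadiness holds only relative to all genes.

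Of the 6 genes that fell, 4 were protein-coding, and 3 of them are described. Itga4, the alpha-4 integrin of leukocytes, was 4.002, 2.05 and 3.13 FPKM after saline and 0.542, 1.01, 1.33 and 0.382 FPKM after isoproterenol (-1.16 ± 0.24, adjusted p = 0.0449). The highest treated library lay below the lowest saline library. Sesn3, a sestrin that restrains mTORC1, was 4.51, 3.76 and 3.39 FPKM after saline and 1.68, 2.31, 1.74 and 0.949 FPKM after isoproterenol (-0.89 ± 0.16, adjusted p = 0.0322). Herc4, a ubiquitin ligase, was 4.81, 4.53 and 4.86 FPKM and then 2.13, 2.63, 3.41 and 1.81 FPKM (-0.73 ± 0.15, adjusted p = 0.0434). The 2 that are not protein-coding had few reads. The microRNA gene Mir23b, of 74 bases, had 5, 10 and 4 reads after saline and 0 in all 4 treated libraries. The pseudogene Hmgb1-ps8 had 93, 59 and 24 reads and then 0, 5, 2 and 2. The next protein-coding genes were not called: C2cd5 (-0.70 ± 0.15, adjusted p = 0.0549), the lymphocyte factor Ikzf3 (-1.44 ± 0.31, adjusted p = 0.0549), the cadherin Celsr1 (-0.64 ± 0.14, adjusted p = 0.0549), Epsti1 (-1.18 ± 0.26, adjusted p = 0.0563), Tjp3 (-0.84 ± 0.19, adjusted p = 0.0581) and Brpf3 (-0.59 ± 0.13, adjusted p = 0.0581).

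Leukocyte markers gave 0 calls in limma and in voom. Of 13 lymphocyte markers tested, 11 were below 0 (median -1.32), and 6 were lower at an unadjusted p under 0.05. The level of 1 saline library set much of this: the T cell co-receptor Cd8a was 108.5, 4.47 and 1.10 FPKM after saline and 0.789, 0.302, 0.975 and 1.21 FPKM after isoproterenol. Cd3g (-2.24 ± 0.84), Cd8b1 (-2.92 ± 1.12) and Cd2 (-1.32 ± 0.32, adjusted p = 0.0776) were also highest in PNXM657, and without that library the median of the list was -0.63. Lymphocyte markers summed to 485 FPKM in PNXM657. Their part in the falls of Itga4, Sesn3 and Herc4 was not tested. Of 19 macrophage markers, 16 were below 0 (median -0.34, and -0.76 without PNXM657, -0.03 without PNXM649 and -0.75 under quantile normalisation), among them Mrc1 (-0.91 ± 0.29), Ccr2 (-0.79 ± 0.29) and Cd163 (-0.82 ± 0.31), with adjusted p of 0.138, 0.163 and 0.165. Their summed levels overlapped, at 458 to 2277 FPKM after saline and 526 to 1372 FPKM after isoproterenol.

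Neutrophil markers varied more among treated libraries than between the groups. Of 15 tested, 14 were above 0 (median 1.58), and 0 had an unadjusted p under 0.05. The calprotectin subunit S100a9 was 48.9, 31.4 and 187 FPKM after saline and 67.65, 1256, 17.4 and 963.5 FPKM after isoproterenol. The granule genes Elane (0.0837, 0.0525 and 5.81 FPKM, then 0.984, 71.8, 0 and 34.2 FPKM) and Mpo followed the same libraries. High levels were thus found in PNXM647 and PNXM648 and the lowest in PNXM645, with PNXM649 the highest of saline. For Ly6g and Lcn2, differences were 1.73 ± 0.87 (adjusted p = 0.229) and 1.92 ± 1.27 (adjusted p = 0.342). The list's median was 0.67 without PNXM647, 0.91 without PNXM648 and 2.51 without PNXM645. Red cell transcripts, of which 7 of 9 were above 0 (median 0.38) and 0 were called by either tool, had the same 2 high libraries, with Hbb-bs at 5047, 3313 and 13060 FPKM and then 7774, 28490, 2874 and 22060 FPKM. Their median was -0.44 under quantile normalisation and -0.20 without PNXM647.

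Lists of immune signalling and division had 0 calls from either tool. For comparison, 54.1% of all genes tested had a difference above 0. Of 23 chemokine and adhesion genes tested, 12 were above 0 (median 0.03), with the leukocyte integrin Itgal at -1.32 ± 0.42 and the chemokines Cx3cl1 at 0.58 ± 0.20 and Cxcl12 at 0.61 ± 0.25. Of 30 interferon-stimulated genes, 13 were above 0 (median -0.03), with Bst2 at 0.53 ± 0.19. Of 22 antigen presentation genes, 13 were above 0 (median 0.09, and -0.24 under quantile normalisation), with the immunoproteasome subunits Psmb9 at 0.53 ± 0.15 (adjusted p = 0.113) and Psmb10 at 0.71 ± 0.24. Of 24 proliferation genes, 23 were below 0 (median -0.49), and 1 was lower at an unadjusted p under 0.05. That gene was Mki67, which marks cycling cells, at 16.9, 2.45 and 3.78 FPKM after saline and 0.752, 2.31, 1.03 and 1.28 FPKM after isoproterenol. PNXM657 was the highest there too, and the median was -0.03 without it and -0.87 without PNXM661. Mesothelial markers had 7 of 8 below 0 (median -0.26), and 0.15 without PNXM648. Of 3 adipocyte markers tested all were above 0 (median 0.38), and the single tested Schwann cell marker, Mbp, differed by -0.57 ± 0.30.

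The same contrast in preparations labelled knockout gives a reference for where the wild-type values differ. There limma called 0 of the 11919 genes, 0% of them, voom also 0, and 6.77% had an unadjusted p under 0.05. No gene was called for the difference between the responses by either tool (2.47% at an unadjusted p under 0.05; smallest adjusted p = 0.19). The 73 nuclear genes called in wild-type preparations were chosen on the wild-type response, so their knockout values can only be set beside it. Of them 70 had the same sign in knockout preparations, the exceptions being Gm28438, Gm13341 and Cygb. The share of all genes tested with the same sign in both was not counted. A knockout unadjusted limma p under 0.05 was found for 42 of the 73, and 40 of those had the same sign. Both responses used a shared estimate of spread per gene, so these p-values are not independent of the choice. The median of the 67 rises was 1.06 in wild-type and 0.46 in knockout preparations. Rbp7 was 2.08 ± 0.28 in wild-type and 0.28 ± 0.28 in knockout preparations, Timp4 1.80 ± 0.37 and 0.47 ± 0.37, and Cox4i2 1.27 ± 0.21 and 1.10 ± 0.21. The 11 called mitochondrial genes were all below 0 in knockout preparations, for example mt-Co1 at -0.95 ± 0.35 and mt-Atp6 at -0.71 ± 0.35. The smallest adjusted p of a difference of responses among the 13 mitochondrially encoded proteins was 0.19. For nuclear respiratory subunits the medians were 1.09 in wild-type and 0.87 in knockout preparations, and for endothelial markers 0.86 and 0.37.

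**Figure D5:**
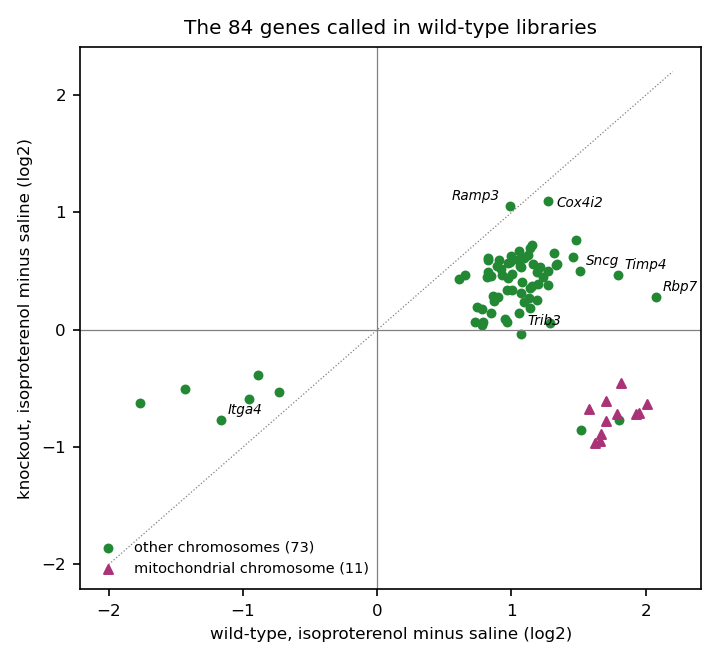
Log2 difference, isoproterenol minus saline, of the 84 genes called in wild-type preparations (horizontal) and the same difference in knockout preparations (vertical), with circles for 73 nuclear genes, triangles for 11 mitochondrial genes and a dotted line of equal values. Of the nuclear genes 70 have the same sign in both, and the 11 mitochondrial genes lie below 0 in knockout preparations. The share of all genes tested with the same sign was not counted.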

How the data were processed

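Heart RNA was sequenced as total RNA. Per the submitters' processing notes, reads were aligned with HISAT2 2.0.5 and counted with featureCounts (version not given). The genome build and the use of strand are not given in the sources used here, so antisense and overlapping genes are uncertain; 99.94% of the 45228 identifiers shared with GENCODE M21 overlap its GRCm38 coordinates, which are the ones printed. The authors deposited FPKM for 46077 genes in 23 libraries, with replicates kept apart. From these values whole reads were recovered (all 425610 values checked within 0.01 of a whole read), which gave the assigned reads per library. A misaligned line (1) was left out, and 27 symbols stored as dates were restored by identifier. Library columns carry a group and an identifier but no replicate number.

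The test was limma (version 3.58.1, R 4.3.3), two-sided, with a variance trend. It was fitted to log2(FPKM + 1) of the 14 cardiomyocyte libraries together, for 11919 genes with at least 1 FPKM in at least 3 of them. P-values were adjusted over those genes by the Benjamini-Hochberg method, and a gene was called at an adjusted p under 0.05. The code was tested on simulated counts. The 37 gene lists and the genes shown were chosen with earlier results of these data known, so lists are described by counts and medians without a test. Named genes are the 15 largest called protein-coding rises, the falls (filled up to 10 in all by the smallest p), the 4 members of each list with the smallest p, and others that were chosen after their values were seen. Some of these are not reported here. Tried as alternatives were pseudocounts of 0.1 and 0.5, other filters, scalings, weights and fits, voom on the recovered reads, and leaving out each library. Counts and percentages of reads cover counting error only, and at 5.06 to 13.4 M reads outside the mitochondrial chromosome that error is small beside the spread between libraries except for genes of a few reads.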

Additional observations from a re-analysis of the deposited data

Results flagged for a closer look

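For 19 of 179 values tested among the 4 wild-type isoproterenol libraries, 1 library lay so far from the other 3 that its gap filled most of the group's range. Chance flags about 1 in 20 such groups, and genes of 1 library are not independent.

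In 16 of the 19 the library was PNXM648, always as the highest. Sarcomere and filament genes among them were Myl2 (2529 FPKM), Myl3 (1623 FPKM), Tnni3 (1419 FPKM) and Des (300.4 FPKM), with the muscle ligase Trim54 (62.84 FPKM). Energy genes were Atp5k (282.5 FPKM), Uqcrq (371.5 FPKM), Etfb (308.6 FPKM), Pgam2 (358.9 FPKM) and Slc2a4 (49.71 FPKM). Membrane transport genes were Fxyd1 (259.5 FPKM) and Kcnk3 (55.19 FPKM). Summed levels of 4 lists stood apart in the same library, at 18460 FPKM for nuclear respiratory subunits, 1396 FPKM for mitochondrial ribosomal proteins, 1449 FPKM for heat shock genes and 844.5 FPKM for hypertrophy genes. The cardiomyocyte marker sum was also highest in PNXM648, and its part in these values was not tested.

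In the other 3 the library was PNXM645, always as the lowest, and all 3 were called rises: Ephb4 (24.45 FPKM), Mfge8 (54.3 FPKM) and Trib3 (2.903 FPKM). Without PNXM645 the number of genes called higher was 178.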

How the results depend on the processing

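The main test called 78 genes higher and 6 lower. By comparison, voom called 93 and 5 (76 shared), and robust moderation 66 and 6. A pseudocount of 0.5 gave 75 and 7, and 0.1 gave 75 and 3. No filter on low values gave 58 and 49, and a filter of 5 FPKM 125 and 4. Array weights gave 773 and 489, and 16 genes for the difference between genotypes. Fitting the wild-type libraries alone gave 0 and 0, equal non-mitochondrial sums 0 and 0, quantile normalisation 2 and 0, and assigned reads 14 and 7856, with 10035 for the difference between genotypes. Leaving out 1 library gave 0 to 178 higher and 0 to 45 lower, 0 to 1 in the knockout response (1 without PNXM657 or PNXM661) and 0 to 1 for the difference between genotypes (1 without PNXM645). The mitochondrial share then differed by 16.38 to 21.22 percentage points and assigned reads by -6.737 to -4.533 M. Their exact permutation p became 0.0667 or 0.1, the smallest that the fewer libraries allow. For the 140 genes in the text, 5 of 2494 values under alternatives changed sign: mt-Co2 (-0.10), mt-Rnr2 (-0.044), mt-Nd6 (-0.048) and Hbb-bs (-0.44) under quantile normalisation, and Adrb1 (-7e-04) under array weights. Where a scaling shifted the median of all genes by over 0.1 (log2), values are relative to that shift. The cause was not tested in any of these. Reads outside the mitochondrial chromosome (5.06 to 13.4 M) limit genes of a few reads, such as Mir23b. No paired analysis was possible because the library columns carry no replicate number, so the planned replicate block was not run.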
